A study of Drosophila melanogaster with 8 samples.

Results

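The genes described here were those with strongly reduced transcripts in *Tj>E(Pc) shRNA* testes. A gene was taken when it had at least 20 counts in both *Tj-Gal4* libraries and when the higher of the *Tj>E(Pc) shRNA* values was at most 0.5 times the lower of the *Tj-Gal4* values. Genes were thus chosen by their CPM, the count of a gene divided by the total of its library and multiplied by 1000000. Of 14256 genes in the table, 9783 had enough counts, and 100 of those were reduced by this rule (1.02%). The rule used the values of these same 4 libraries, so the reductions below are descriptions and carry no test.

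Whole testes of adult *Drosophila melanogaster* aged 5 days were profiled by RNA-seq, with 1 pair of testes per library. The knockdown group, written *Tj>E(Pc) shRNA*, had 2 libraries labelled Tj-Gal4/+; UAS-E(Pc) shRNA/+, with 6251181 and 3691459 counts. The control group had 2 libraries labelled Tj-Gal4, with 3307767 and 4273908 counts, and no other allele or transgene on the label. All libraries carried the Gal4 driver, which the study described as active in the somatic cells of the gonad, cyst and hub cells among them. It is not active in germ cells, so E(Pc) in germ cells was not targeted. The genotype notation places the driver on chromosome 2 and the shRNA transgene, present in knockdown flies alone, on chromosome 3. The driver was also shown with a wild-type partner in the knockdown genotype and without one in the control genotype. The 4 ChIP-seq samples of the study were not analysed here. The targeted gene, *E(Pc)*, had 430 and 335 CPM in *Tj>E(Pc) shRNA* testes, against 258 and 278 CPM in *Tj-Gal4* testes, so its transcript level in whole testes was not lower under the knockdown label (log2 fold change 0.44, adjusted p = 0.083, edgeR quasi-likelihood test). The study detected a GFP-tagged E(Pc) protein in both germ cells and cyst cells. With the knockdown it reported a much weaker GFP signal in cyst cells than in germ cells nearby. RNA from whole testes does not separate these cells.

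The *Drosophila* testis is a coiled tube in which germline stem cells and cyst stem cells lie around a hub of somatic cells at the closed tip. Cyst cells enclose the dividing germ cells and stay with them until sperm are released, and a sheath of muscle cells and pigment cells covers the organ. E(Pc), Enhancer of Polycomb, is a chromatin protein of the Tip60 histone acetyltransferase complex. In RNA from a whole organ, fewer cells of a type and less RNA per cell cannot be told apart.

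The reduced genes were mostly of low or moderate level. The mean *Tj-Gal4* value ranged between 5.95 and 225 CPM over the 100 genes, with a median of 20.3 CPM, beside a median of 57.6 CPM over all 9783 genes with enough counts. Per kilobase of transcript, on the authors' corrected RPKM scale (cRPKM), the median *Tj-Gal4* level was 12.04 for reduced genes and 29.02 for all 9783. Counts stayed below 1 per base of transcript in every library, and genes near that level may have been less able to meet the rule, which was not tested. With only the 7615 eligible genes under 0.5 counts per base in every library, the rule took 98 genes. The mean *Tj>E(Pc) shRNA* CPM was 28.7% of the mean *Tj-Gal4* CPM for the median reduced gene, with quartiles of 17.5% and 34.6% and extremes of 0% and 47.6%. The *Tj-Gal4* replicates lay within 1.5-fold of each other for 89 of the 100 genes. The *Tj>E(Pc) shRNA* replicates, many of them at a few counts, lay over 2-fold apart for 26. Together the *Tj-Gal4* libraries held fewer than 200 counts for 61 of the genes, so the size of many reductions is known only coarsely.

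**Figure D1:**
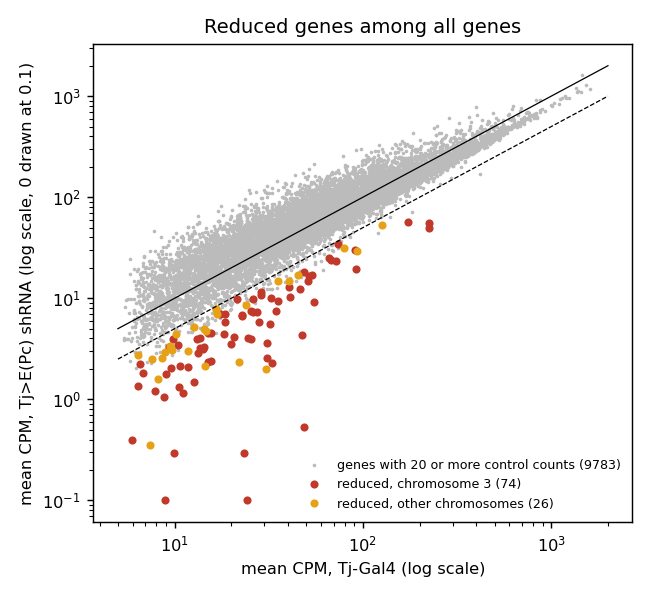
Mean CPM in *Tj>E(Pc) shRNA* testes (vertical log axis) against mean CPM in *Tj-Gal4* testes (horizontal log axis) for genes with at least 20 counts in both *Tj-Gal4* libraries, with the 100 reduced genes marked by chromosome and means of 0 drawn at 0.1. The solid line marks equal values and the dashed line a ratio of 0.5. Each point is a gene and the mean of 2 libraries per genotype; the reduced genes lie below the cloud, most of them on chromosome 3 and at low to moderate levels.

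Across the whole table, an edgeR quasi-likelihood test called 1272 of 11163 genes lower in *Tj>E(Pc) shRNA* testes (11.4%) and 2517 higher (22.5%) at an adjusted p under 0.05. All 100 reduced genes were among the lower calls, from which nothing is read, since the rule used the same contrast. Both *Tj>E(Pc) shRNA* values lay below both *Tj-Gal4* values for 31.3% of the 9783 genes. The opposite rule, with the genotypes exchanged, took 595 of 9963 genes (5.97%). As nothing in the labels ties the libraries to separate cultures, the adjusted p-values measure only the spread between these libraries.

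Of the 100 reduced genes, 96 were annotated as mRNA and 4 as non-coding RNA. Gene names of the kind given to studied genes were carried by 41, CG numbers by 49, long non-coding RNA symbols by 5, and no symbol by the remaining 5. The pair *CG30080* and *CG42662* had identical counts and length in every library and stands for 1 locus listed as 2 entries. Where near-identical copies exist, as for the peroxiredoxins *Prx6b* and *Prx6c*, reads that align to several sites were dropped by the authors, and such values are uncertain.

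A feature that many reduced genes shared, and that was not used to choose them, was their chromosome. Chromosome 3 carried 74 of the 100 (74%, Wilson 95% interval 64.6 to 81.6%), 32 on arm 3L and 42 on arm 3R, with 1 from its heterochromatin. In the 9783 genes with enough counts, chromosome 3 carried 43.6%. Chromosome 2 carried 18 reduced genes, 9 on each arm, the X chromosome 8, and chromosome 4 none of its 66 genes with enough counts. Put per gene, 1.74% of the eligible genes on chromosome 3 were reduced, against 0.463% on chromosome 2 and 0.518% on the X. Neighbouring genes are not independent, and the interval covers counting error only.

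The chromosome 3 share was larger among the deeper reductions. It was 84% (21 of 25) for genes whose ratio of the highest *Tj>E(Pc) shRNA* to the lowest *Tj-Gal4* CPM was below 0.25, 83.9% (26 of 31) for ratios of 0.25 to 0.4, and 61.4% (27 of 44) for ratios of 0.4 to 0.5. Of the genes that met the opposite rule, 42.7% lay on chromosome 3, beside 43.3% of the genes eligible for that rule. The median log2 fold change over all tested genes was -0.01 on chromosome 3, -0.06 on chromosome 2 and 0.21 on the X. The wider group of 1272 lower calls stood in between, with 51.4% on chromosome 3, where 13.4% of tested genes were called lower, against 11.7% on chromosome 2 and 5.39% on the X. In this design a copy of chromosome 3 of different origin, which comes with the transgene into knockdown flies alone, and the knockdown itself cannot be told apart. A body pigment gene on the X that is often a stock marker, *y*, had 10.4 and 5.69 CPM in *Tj>E(Pc) shRNA* testes, against 0.907 and 0.936 CPM in *Tj-Gal4* testes; the part of stock background in the reductions was not tested.

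**Figure D2:**
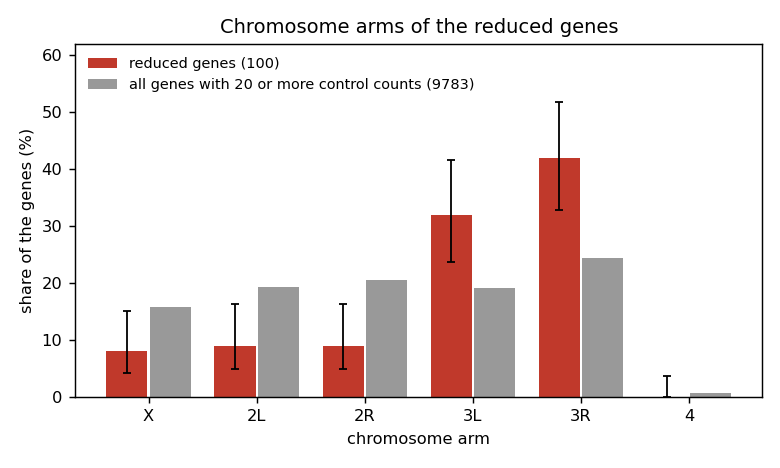
Share (%) of the 100 reduced genes on each chromosome arm, with Wilson 95% intervals as error bars, beside the share of all 9783 genes with enough counts. On arms 3L (32 genes) and 3R (42 genes) the bar of the reduced genes stands above that of all genes, and on X, 2L and 2R, each with 8 or 9 reduced genes, it stands below.

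Several genes were close to absent in *Tj>E(Pc) shRNA* testes. *Gr85a*, a member of the gustatory receptor family, had 0 counts in both *Tj>E(Pc) shRNA* libraries, against 30 and 37 counts (9.07 and 8.66 CPM) in *Tj-Gal4* libraries. Set against a floor of 3 counts per library, it was at least 10.7-fold lower. The long non-coding RNA *lncRNA:CR43434* also had 0 counts in both *Tj>E(Pc) shRNA* libraries, against 72 and 114 counts (21.8 and 26.7 CPM) in *Tj-Gal4* libraries, at least 26.8-fold lower. These were the 2 reduced genes without a read in either knockdown library.

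*Hn* encodes phenylalanine hydroxylase, which makes tyrosine and acts in pigment synthesis. It had 5 and 1 counts (0.800 and 0.271 CPM) in *Tj>E(Pc) shRNA* libraries, against 143 and 229 counts (43.2 and 53.6 CPM) in *Tj-Gal4* libraries. The pooled *Tj>E(Pc) shRNA* level was 1.23% of the *Tj-Gal4* level, with an exact 95% interval of 0.448 to 2.70%. *CG11892*, of the ecdysteroid kinase-like family, had 2 and 1 counts in *Tj>E(Pc) shRNA* libraries, against 74 and 103 in *Tj-Gal4* libraries, a pooled level of 1.29% (interval 0.264 to 3.84%). *CG4328*, a LIM-homeodomain gene, had 2 and 1 counts in *Tj>E(Pc) shRNA* libraries, against 32 and 44 in *Tj-Gal4* libraries, or 3.01% (interval 0.607 to 9.14%). *CG11300*, on arm 2R, had 1 and 2 counts in *Tj>E(Pc) shRNA* libraries, against 24 and 32 in *Tj-Gal4* libraries, or 4.09% (interval 0.818 to 12.6%). For each of these genes no more than 5 counts were found in any knockdown library, including the one with the greatest depth. The intervals cover counting error only, since reads are not independent molecules.

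The remaining genes among the 15 lowest ratios had at least 4 counts in each knockdown library, except *CG16727*. *CAH5*, a carbonic anhydrase, had 2.40 and 2.17 CPM in *Tj>E(Pc) shRNA* testes, against 32.05 and 33.7 CPM in *Tj-Gal4* testes. *Spn43Aa*, a serpin (serine protease inhibitor), had 2.88 and 1.08 CPM in *Tj>E(Pc) shRNA* testes, against 30.5 and 30.4 CPM in *Tj-Gal4* testes. *CG17917* had 2.88 and 5.69 CPM in *Tj>E(Pc) shRNA* testes, against 44.7 and 50.3 CPM in *Tj-Gal4* testes. In all 3 the *Tj-Gal4* replicates differed little, while the separation of the genotypes was fixed by the rule and the ranking. *CG13643*, *CG16727*, *CG14635*, *caup*, *dpr15* and *CG6908* completed the set, with *Tj>E(Pc) shRNA* means between 6.72% and 12.5% of the *Tj-Gal4* means. *CG16727* was listed at 5 and 0 counts in *Tj>E(Pc) shRNA* libraries, against 20 and 25 in *Tj-Gal4* libraries, and had the fewest reads of these. Of these 15 genes, all but *CG11300*, *Spn43Aa* and *CG14635* lay on chromosome 3.

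**Figure D3:**
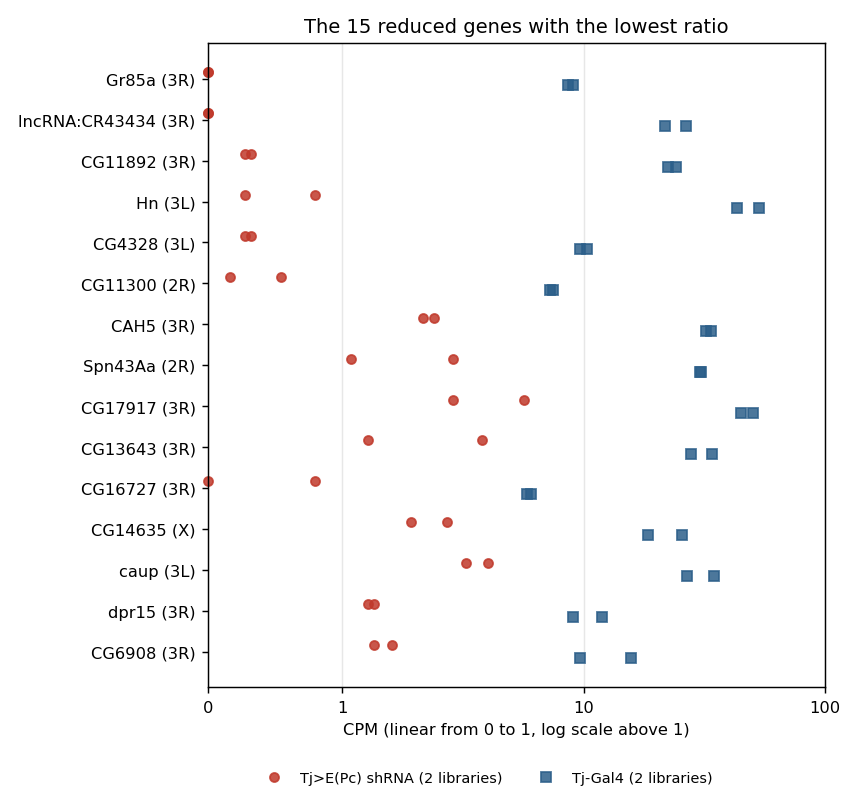
CPM in each library for the 15 reduced genes with the lowest ratios, with *Tj>E(Pc) shRNA* and *Tj-Gal4* libraries as separate points. For every gene the 2 *Tj>E(Pc) shRNA* points lie well apart from the 2 *Tj-Gal4* points, which the rule required, and *Gr85a* and *lncRNA:CR43434* are at 0 in both *Tj>E(Pc) shRNA* libraries.

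Whether the reduced genes share a pathway was not tested. By known function, 49 could be placed in groups drawn up after their names were seen, and 51 could not; 39 of the 49 and 35 of the 51 lay on chromosome 3. The groups with at least 5 genes were proteins of the neuronal surface, synapse and channels (8 genes), developmental regulators (7 genes), ecdysteroid kinase-like proteins (5 genes) and long non-coding RNAs (5 genes). As chromosome 3 carried 74% of all reduced genes, its share in groups this small is not read as a trait of a group. The groups for transport, for proteases and immune recognition, and for redox and detoxification each had 1 of 3 genes there.

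Enzymes of aromatic amino acid and purine metabolism that feed pigment synthesis gave 3 members, *Hn*, *ple* and *ry*, all on chromosome 3. *ple* encodes tyrosine hydroxylase, the step that makes DOPA, the source of dopamine and melanin. It had 5.28 and 13.3 CPM in *Tj>E(Pc) shRNA* testes, against 41.7 and 68.3 CPM in *Tj-Gal4* testes. *ry* encodes xanthine dehydrogenase, which acts on purines and on the pterins of eye pigment, and had 21.6 and 12.2 CPM in *Tj>E(Pc) shRNA* testes, against 49.0 and 58.7 CPM in *Tj-Gal4* testes. The replicates of *ple* were spread in both genotypes, and those of *ry* mainly in *Tj>E(Pc) shRNA* testes. The pigment list as a whole was split. Of 22 tested genes of pigment cells and pigment synthesis, 4 were called lower and 7 higher, with a median log2 fold change of 0.10 beside 0.00 over all tested genes. The fourth lower call was *e*, which acts on dopamine in cuticle tanning, with 10.6 and 15.98 CPM in *Tj>E(Pc) shRNA* testes and 19.95 and 29.7 CPM in *Tj-Gal4* testes (log2 fold change -1.01, adjusted p = 0.0225, edgeR). *Ddc*, the dopa decarboxylase that follows tyrosine hydroxylase, had 29.4 and 21.7 CPM in *Tj>E(Pc) shRNA* testes and 28.1 and 33.5 CPM in *Tj-Gal4* testes, ranges that overlap.

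Developmental regulators numbered 7, all on chromosome 3. *caup*, a homeodomain transcription factor of the Iroquois complex, had 3.999 and 3.25 CPM in *Tj>E(Pc) shRNA* testes, against 26.9 and 34.6 CPM in *Tj-Gal4* testes. *tok* encodes a secreted metalloprotease of the tolloid family, which releases BMP-type ligands from their inhibitors. It had 50.2 and 48.2 CPM in *Tj>E(Pc) shRNA* testes, against 217 and 233 CPM in *Tj-Gal4* testes, with close replicates and at least 178 counts in each library. *dmrt93B*, a DM-domain gene related to *doublesex*, had 10.7 and 9.48 CPM in *Tj>E(Pc) shRNA* testes, against 29.6 and 35.6 CPM in *Tj-Gal4* testes. *sty*, the Sprouty inhibitor of receptor tyrosine kinase signalling, had 26.1 and 21.9 CPM in *Tj>E(Pc) shRNA* testes, against 57.1 and 77.7 CPM in *Tj-Gal4* testes. The cell death activator *rpr* had 5 and 6 counts in *Tj>E(Pc) shRNA* libraries, against 22 and 39 in *Tj-Gal4* libraries. *Sdr*, a secreted decoy of the insulin receptor, had 6.88 and 7.04 CPM in *Tj>E(Pc) shRNA* testes, against 16.02 and 18.7 CPM in *Tj-Gal4* testes. With *CG4328*, these genes covered *Tj>E(Pc) shRNA* levels of 2.96% to 40.1% of *Tj-Gal4*.

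Genes best known from neurons gave 8 members, 7 of them on chromosome 3, all at *Tj-Gal4* levels between 1.97 and 6.94 cRPKM. *nSyb* encodes neuronal synaptobrevin, a protein of synaptic vesicle fusion. It had 7.20 and 7.59 CPM in *Tj>E(Pc) shRNA* testes, against 21.8 and 30.2 CPM in *Tj-Gal4* testes. *Nlg4*, a neuroligin of the postsynaptic surface, had 14.7 and 4.06 CPM in *Tj>E(Pc) shRNA* testes, against 31.1 and 39.5 CPM in *Tj-Gal4* testes, with widely spread knockdown replicates. The others were the kainate-type glutamate receptor subunit *Grik*, the photoreceptor channel *trp*, the immunoglobulin-domain proteins *beat-IV* and *dpr15*, the synaptic cleft protein *hig* and the axon guidance receptor *gogo*. The 8 genes were at 10.4% to 37.95% of *Tj-Gal4*. A separate list of neuronal markers was divided. Of 8 tested, 3 were called lower (*nSyb*, *brp* and *ChAT*) and 4 higher (*futsch*, *cac*, *Syx1A* and *Appl*), with a median log2 fold change of 0.51. The active zone gene *brp* had 58.2 and 31.4 CPM in *Tj>E(Pc) shRNA* testes and 80.4 and 96.4 CPM in *Tj-Gal4* testes (log2 fold change -1.03, adjusted p = 0.00537, edgeR). The pan-neuronal gene *elav* was at 9.60 and 7.31 CPM in *Tj>E(Pc) shRNA* testes and 4.23 and 6.79 CPM in *Tj-Gal4* testes. Summed over the list, neuronal markers were at 256 and 180 CPM in *Tj>E(Pc) shRNA* testes and 192 and 235 CPM in *Tj-Gal4* testes, which overlap.

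The ecdysteroid kinase-like family, named after a silkworm kinase that acts on ecdysteroid hormones, gave 5 members, *CG10514*, *CG11892*, *CG31098*, *CG31380* and *CG6908*, all on arm 3R. *CG10514* had 6.24 and 1.63 CPM in *Tj>E(Pc) shRNA* testes, against 26.3 and 24.6 CPM in *Tj-Gal4* testes. *CG31380*, with 87 and 44 counts in *Tj>E(Pc) shRNA* libraries and 127 and 181 in *Tj-Gal4* libraries, was the best counted of them, at 31.998% of *Tj-Gal4*. The family was picked out after the values were seen, so its counts carry no weight as a test. Of 53 family genes in the table, 28 had enough counts, and 19 of those lay on chromosome 3. The log2 fold change was negative for 24 of the 28, and for 19 of the 23 that were not reduced by the rule, beside 51.4% of all 9783 genes; the median over the 23 was -0.44. *CG11889* and *CG11891* had identical counts and length, and with that locus taken once the values were negative for 23 of 27, and for 18 of 22 with a median of -0.46. *CG5644*, on arm 3L, had the lowest value outside the 5, a log2 fold change of -1.81. Members of this family are alike in sequence and some lie side by side, and reads that align to several copies were dropped.

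**Figure D4:**
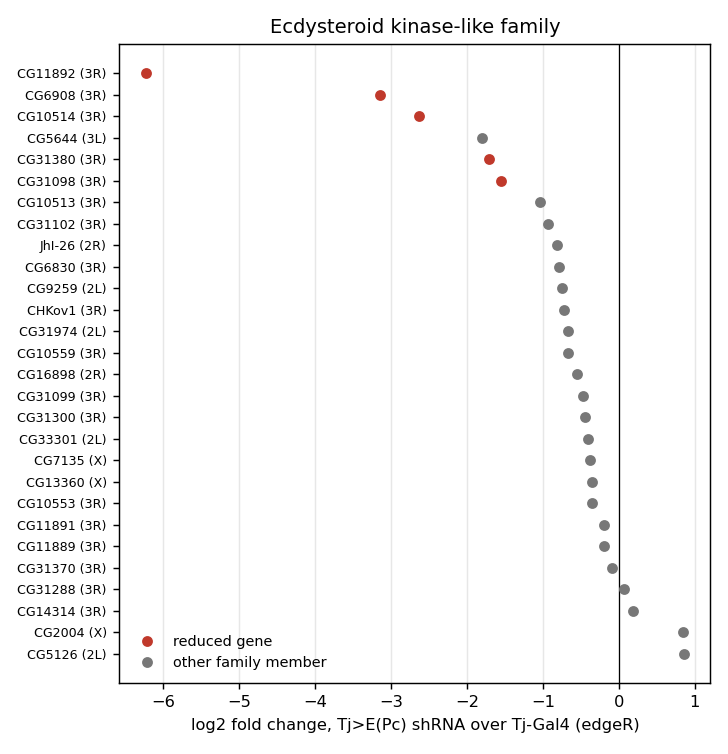
Log2 fold change, *Tj>E(Pc) shRNA* over *Tj-Gal4*, of the 28 ecdysteroid kinase-like genes with enough counts, with the 5 reduced genes marked. Of the 28 values, 24 lie below 0, and the reduced genes *CG11892*, *CG6908* and *CG10514* are the lowest.

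Of the other protein families set by symbol, none gave more than 2 members. Chemoreceptors and odorant binding proteins gave *Gr85a*, the ionotropic receptor *Ir75c* and the odorant binding protein *Obp69a*, 2 of 35 eligible genes for receptors (with pickpocket channels) and 1 of 11 for odorant binding and chemosensory proteins. *Obp69a* had 5.76 and 3.25 CPM in *Tj>E(Pc) shRNA* testes, against 15.7 and 14.5 CPM in *Tj-Gal4* testes. *Cyp12a5* was the 1 member among 38 cytochromes P450, and *Cpr92A* the 1 among 14 cuticle proteins. Ribosomal proteins (87 eligible genes), glutathione S-transferases (22), sperm leucyl aminopeptidases (18) and *Mst* genes of the male germline (16) gave none. The rule took 1.02% of all 9783 eligible genes, so families of these sizes with few or no members are not read as a result.

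Transport and epithelial genes included *Drip*, an aquaporin water channel, with 58.1 and 48.8 CPM in *Tj>E(Pc) shRNA* testes, against 126 CPM in both *Tj-Gal4* libraries. The sodium-proton antiporter gene *Nha1* had 4.96 and 5.42 CPM in *Tj>E(Pc) shRNA* testes, against 14.2 and 10.997 CPM in *Tj-Gal4* testes. Lipid handling gave *wat*, a fatty acyl-CoA reductase, *Acbp2*, an acyl-CoA binding protein, *dsb*, of the CD36 scavenger receptor family, and *Jhbp6*, of the juvenile hormone binding family, all 4 on chromosome 3. *Jhbp6* had the lowest relative level of these, with 6.72 and 4.33 CPM in *Tj>E(Pc) shRNA* testes, against 29.9 and 34.2 CPM in *Tj-Gal4* testes. Among extracellular proteins, the protease *snk*, of the cascade that patterns the embryo, had 5.44 and 1.08 CPM in *Tj>E(Pc) shRNA* testes, against 13.3 and 15.2 CPM in *Tj-Gal4* testes. *PGRP-SA*, which recognises bacterial peptidoglycan upstream of Toll, had 6.08 and 3.79 CPM in *Tj>E(Pc) shRNA* testes, against 12.4 and 16.4 CPM in *Tj-Gal4* testes. *PH4alphaMP*, a prolyl 4-hydroxylase subunit, was at 29.6% of *Tj-Gal4*.

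Per kilobase, the most abundant reduced gene was *CG32457*, at 15.1 and 41.5 cRPKM in *Tj>E(Pc) shRNA* testes, against 148 and 136 cRPKM in *Tj-Gal4* testes. *CG42521* had 52.4 and 48.3 cRPKM in *Tj>E(Pc) shRNA* testes, against 159 and 120 cRPKM in *Tj-Gal4* testes. *alphaTub85E*, an alpha-tubulin isotype known from the testis and from muscle attachment sites, came next, with 30.2 and 36.3 cRPKM in *Tj>E(Pc) shRNA* testes, against 105 and 106 cRPKM in *Tj-Gal4* testes. It was the only reduced gene of 8 eligible tubulin genes. *CG13947*, *CG7409*, *CG10175*, *CG42827*, *Drip*, *CG17917* and *CG17186* followed. Only *CG32457* and *CG42521* exceeded 0.5 counts per base of transcript in any library, where 22.1% of all 9783 genes did. In no library did a gene exceed 0.965 counts per base.

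**Figure D5:**
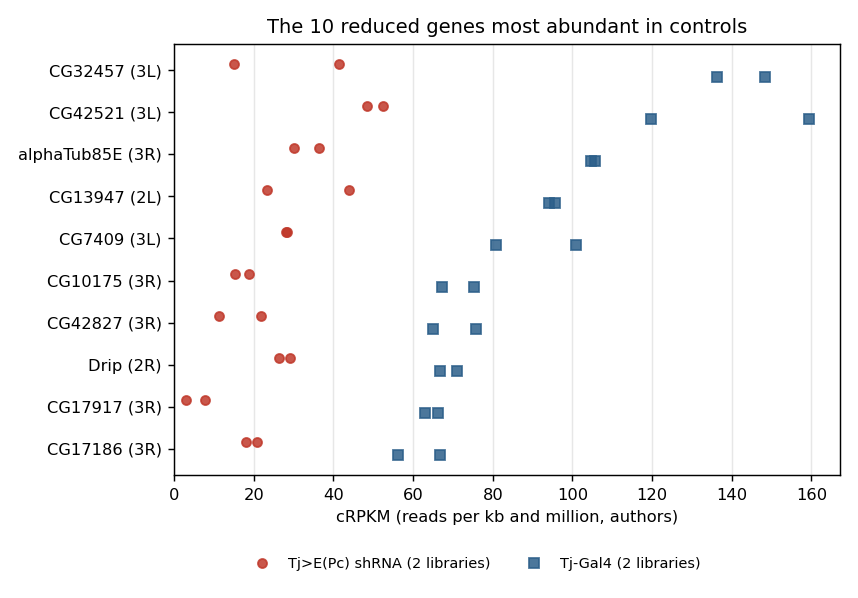
Level in each library, on the authors' cRPKM scale, of the 10 reduced genes with the highest mean *Tj-Gal4* cRPKM. *CG32457* and *CG42521* are highest in *Tj-Gal4* testes, and *CG17917* shows the deepest reduction, with 3.08 and 7.80 cRPKM in *Tj>E(Pc) shRNA* testes against 62.9 and 66.2 cRPKM in *Tj-Gal4* testes.

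Long non-coding RNAs gave 5 members by symbol, where 181 eligible genes had a non-coding RNA symbol of any kind. The share of the rule over all eligible genes was 1.02%. Besides *lncRNA:CR43434*, the best counted was *lncRNA:CR43280*, with 22.4 and 11.1 CPM in *Tj>E(Pc) shRNA* testes, against 51.7 and 51.5 CPM in *Tj-Gal4* testes. The library kit does not mark strand, so reads from an overlapping gene on the other strand cannot be separated from theirs.

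Some reduced genes were neighbours. In the RefSeq gene order of the Release 6 assembly, where 90 of the 100 could be placed, 12 pairs lay with no more than 5 protein-coding genes between them, 10 of the pairs on chromosome 3, and 23 genes took part. How many such pairs other sets of 90 eligible genes would give was not computed, so the number of pairs is not read as clustering. Apart from the locus listed under 2 names, *Tmhs* and *dsb*, *CG8519* and *ple*, *CG7409* and *Hn*, *CG11069* and *CG13643*, and *CG10514* and *CG11892* were adjacent. Adjacent genes differed in depth of reduction. *Hn* was at 1.11% of *Tj-Gal4* and *CG7409* at 32.6%, and *CG11892* was at 1.27% and *CG10514* at 15.5%. For *ple* (16.9%) and *CG8519* (20.7%) the levels were closer.

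Calls on the marker lists are read beside the shares over all tested genes, 11.4% lower and 22.5% higher. No reduced gene belonged to the lists for early germline, spermatocyte transcription, spermatid differentiation, cyst lineage, hub, muscle sheath, accessory gland, fat body, gut, hemocyte, antimicrobial or Y-linked genes. As the rule took 1.02% of all eligible genes, a list of such size without a reduced gene is not read as a result. Early germline genes were called higher for 5 of 9 tested and lower for none, at 1229 and 1167 summed CPM in *Tj>E(Pc) shRNA* testes against 740 and 738 CPM in *Tj-Gal4* testes. Spermatocyte genes were called higher for 5 of 11 and lower for none. Spermatid genes were called lower for 3 of 16 and higher for none, with a median log2 fold change of -0.44. *Mst87F* of the spermatid list had 357 and 328 counts in *Tj>E(Pc) shRNA* libraries and 342 and 352 in *Tj-Gal4* libraries, nearly equal despite unequal depth. Several others of that list were alike, so their fold changes are not read as a change in transcripts. Cyst lineage genes were split (2 lower and 2 higher of 8), and 2 of 4 hub genes were called lower and none higher. Muscle genes were called lower for 3 of 18 and higher for none, at 2225 and 1772 CPM in *Tj>E(Pc) shRNA* testes and 2096 and 2216 CPM in *Tj-Gal4* testes. Of the other organs a dissection can carry over, gut genes were called lower for 3 of 6 tested, at 203 and 133 CPM in *Tj>E(Pc) shRNA* testes and 239 and 269 CPM in *Tj-Gal4* testes. Fat body genes gave 1 lower and 1 higher call of 9, hemocyte genes 3 higher and none lower of 9, and antimicrobial genes 1 lower and none higher of 5. Accessory gland genes gave no call among 3 tested, with 16 of 26 at 3 counts or fewer in every library, and Y-linked genes gave 2 lower calls of 5. In gut and fat body 5 listed genes each, such as *alphaTry* and *Yp1*, were also at that floor. The fat body list still summed to 233 and 161 CPM in *Tj>E(Pc) shRNA* testes and 180 and 229 CPM in *Tj-Gal4* testes. The part of carried-over tissue in the reductions was not tested.

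The ejaculatory duct and bulb list held 1 reduced gene, *Ebp*, which encodes an ejaculatory bulb protein. It had 5.44 and 4.06 CPM in *Tj>E(Pc) shRNA* testes, against 11.5 and 17.8 CPM in *Tj-Gal4* testes. The other 3 tested genes of the list, *EbpIII*, *Gld* and *Est-6*, were called higher, and *EbpIII* had 68.8 and 95.9 CPM in *Tj>E(Pc) shRNA* testes, against 46.6 and 49.1 CPM in *Tj-Gal4* testes.

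The study drew up lists of genes that E(Pc) bound and that changed in expression, with expression taken from these same libraries, so the lists are not independent of the rule. The list of bound genes with lower expression, of which 152 could be matched, held 6 reduced genes (6% of the reduced genes, 3.95% of the list). They were *tok*, *dmrt93B*, *Tmhs*, *Srg3*, *CG15213* and *CG10026*, and the other 94 were not on it. Over all 9783 genes with enough counts, 1.49% were on that list. The list of bound genes with higher expression held none, as its direction fixes.

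At the edge of the rule the ratio of the highest *Tj>E(Pc) shRNA* to the lowest *Tj-Gal4* CPM was 0.498 for *CG42662* and *CG14984* and 0.4996 for FBgn0031464, which were just inside. It was 0.503 for *CG34284* and 0.504 for *CG30022* and *CG6865*, which were just outside.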

How the data were processed

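Total RNA from testes was made into unstranded libraries and sequenced as 50-nt single reads. The authors aligned the reads with Bowtie 0.12.7 to the dm3 assembly, allowing 2 mismatches and a single site, and deposited raw counts per gene over merged exons. The authors also deposited cRPKM, an RPKM made from edgeR pseudo-counts, used here to compare levels between genes.

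The rule was applied to CPM by column total. All genes passing filterByExpr were tested in edgeR 4.0.16 (R 4.3.3) by the quasi-likelihood test with TMM scaling and Benjamini-Hochberg adjustment, with 2 libraries per genotype. DESeq2 1.42.0 and other scalings, filters and thresholds were alternatives. On simulated counts for this comparison (11053 genes) the fit recovered 95 of 107 genes changed 2-fold and 93 of 93 changed 4-fold, with 6 false calls. The changed genes were drawn from better expressed genes, and all genes shared a common dispersion. Recovery at the low levels of many reduced genes was thus not measured. Depth was 3307767 to 6251181 counts, so a floor of 3 counts was 0.480 to 0.907 CPM.

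The genes, the 15 lists and the 25 symbol families were chosen with earlier results of these data known. Genes were named by rank of the ratio, by level, by list or family, at the edge of the rule, or where a studied name existed; the ecdysteroid kinase-like genes and the role groups were chosen after values were seen. Symbols and neighbours came from RefSeq (Release 6), with 13563 of 14256 identifiers matched. Protein and promoter comparisons were not run.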

Additional observations from a re-analysis of the deposited data

How the results depend on the processing

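The number of reduced genes followed the rule. It was 153 with at least 10 counts and 57 with at least 50, 245 at a ratio of at most 0.667 and 36 at most 0.333, and 114 to 382 with a library left out, with 382 without *Tj>E(Pc) shRNA* replicate 1 and 255 without *Tj-Gal4* replicate 1. Scaling by TMM gave 129 genes, 98 of them among the 100, and by upper quartile 120 with all 100. Chromosome 3 held 86.1% at a ratio of at most 0.333 and 60.7 to 71.1% with a library left out; taking this share under each setting was decided after the data were seen. Genes called lower numbered 724 by DESeq2, 315 at 2-fold or more and 447 to 2652 with a library left out, with 447 without *Tj-Gal4* replicate 2, 474 without *Tj-Gal4* replicate 1 and 2652 without *Tj>E(Pc) shRNA* replicate 2. In the same order, genes called higher numbered 1453, 981 and 1219 to 3288, with 1219 without *Tj-Gal4* replicate 1 and 1676 without *Tj-Gal4* replicate 2. Across genes, same-numbered libraries tended only weakly to deviate in opposite directions (correlation -0.25). The replicate block gave 888 lower and 2107 higher calls, and the crossed replicate block, added after the data were seen, 3014 lower. The share of higher calls was 66.4%, 73.8% by library size alone, 60.5% by upper quartile and 51.4% in the crossed block. Over the 15 lists, 25 genes were called lower and 30 higher, and this balance depended on the setting. Lower calls outnumbered higher ones by DESeq2 (18 and 16), in the replicate block (22 and 21) and the crossed block (49 and 37), and without *Tj>E(Pc) shRNA* replicate 1 (37 and 24) or 2 (43 and 36) or *Tj-Gal4* replicate 1 (15 and 14), but not without *Tj-Gal4* replicate 2 (16 and 21) or by library size alone (21 and 30). Of the 100 reduced genes, 87 to 100 were called lower in every fit but the one with at least 10 counts in every library, which tested 66 of them and called all 66. Their log2 fold changes were negative in each fit, from which nothing is read, since the rule fixes the direction. The depth, with fewer than 200 *Tj-Gal4* counts for 61 of the genes, limits how well the size of each reduction is known.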
